A study of Homo sapiens with 14 samples.

Results

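PDPK1 and 8 kinases that it phosphorylates were followed through the RNA-seq counts of CHP-134 neuroblastoma cells. The 9 genes were taken by symbol from both count tables: PDPK1, AKT1, AKT2, SGK1, SGK3, RPS6KB1, RPS6KB2, RPS6KA1 and RPS6KA3, of 19726 gene identifiers listed in at least 1 of the tables. CHP-134, an established line from a human neuroblastoma, has amplified MYCN. In the first experiment, CHP-134 cells carrying a lentiviral, doxycycline-inducible transgene for either EGFP or OmoMYC received 1 µg/ml doxycycline for 3 days (3 libraries each). OmoMYC, an altered leucine zipper region of MYC, dimerizes in place of the full MYC proteins and blocks their function. EGFP, a fluorescent protein, served as the control for doxycycline and for carrying an inducible transgene. The EGFP and OmoMYC lines came from separate transductions, so differences between the lines cannot be told apart from an effect of OmoMYC. In the second experiment, parental CHP-134 cells received 500 nM dTAG47 or matched DMSO for 18 h (4 libraries each). dTAG47 recruits proteins tagged with FKBP12(F36V) to an E3 ubiquitin ligase for degradation, and the parental cells carry no such tag, so this comparison measures what the compound does without its target. Cells in which PDPK1 itself carries the tag were not analysed here. The engineered cells grew in tetracycline-approved serum and the parental cells in normal serum, and the experiments are separate tables, so levels were compared between treatments only within an experiment.

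PDPK1 is a kinase of the AGC family that is drawn to the plasma membrane by the lipid product of PI3K. It phosphorylates the activation loop of many other AGC kinases, among them the AKT, SGK, S6K and RSK families, which then control glucose uptake, survival, translation and growth. Each substrate also needs a second input: mTORC2 for AKT and SGK, mTORC1 for S6K, and ERK for RSK. All of these steps are changes in phosphorylation, and RNA-seq measures only how much transcript of each kinase is present.

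MYC proteins and their partners bind E-boxes, of which CACGTG is the canonical form and CACGCG and CATGCG are common variants. These letters were searched on both strands in the 250 bases before each start site in RefSeq promoters of GRCh38.p14. For 8 of the 9 genes, 14 such windows were read. SGK3 was left out of this reading, so its promoter is not described. RPS6KB1 alone among these 8 genes had repeated matches, and its window (chr17:59892871-59893120, plus strand) holds CATGCG, written on this strand as CGCATG, 5 times, at 217, 178, 135, 94 and 52 bases before the start. Of 35116 promoters, 11 (0.0313%) hold at least 5, and 5.94% hold at least 1. The motif and the threshold of 5 were taken from the RPS6KB1 window itself, so the 0.0313% describes that window and tests nothing. The matches are almost evenly spaced, and whether they are separate sites was not tested. The second start of AKT1 has 1 CATGCG, and the other 12 windows have no match to any of the 3 motifs, which are present in 19.6% of all promoters (CACGTG in 6.34% and CACGCG in 9.72%). The RPS6KB1 window is printed for its repeated motif, in capitals. Beside it is that of the first RPS6KA1 start (chr1:26529511-26529760, plus strand), which has none. RPS6KA1 had the largest rise with OmoMYC among the 8 genes tested for expression. A match of letters does not show binding.
RPS6KB1: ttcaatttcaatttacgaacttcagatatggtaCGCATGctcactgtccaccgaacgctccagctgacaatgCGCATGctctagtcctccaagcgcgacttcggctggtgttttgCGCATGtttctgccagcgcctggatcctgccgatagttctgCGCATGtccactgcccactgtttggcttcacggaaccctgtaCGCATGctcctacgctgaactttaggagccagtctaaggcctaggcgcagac
RPS6KA1: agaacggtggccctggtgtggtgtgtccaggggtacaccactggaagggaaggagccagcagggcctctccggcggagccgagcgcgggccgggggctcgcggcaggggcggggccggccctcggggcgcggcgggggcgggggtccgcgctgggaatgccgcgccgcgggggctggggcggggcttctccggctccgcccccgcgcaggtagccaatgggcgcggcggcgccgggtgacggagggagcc

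The libraries held 28060817 to 38358128 counts in the EGFP and OmoMYC groups and 40861430 to 53451641 in the DMSO and dTAG47 groups. Expression is given as CPM, a count relative to the library total after scaling libraries by TMM. Summed over 7 neuroblastoma markers, such as GATA3 and DBH, the libraries ranged from 1180 to 1328 CPM with EGFP, 1277 to 1313 with OmoMYC, 1216 to 1281 with DMSO and 1219 to 1299 with dTAG47. The sum over 5 fibroblast markers was 72.5 to 92.7 CPM in the engineered lines and 26.7 to 32.3 CPM in the parental cells, and that over 4 Schwann cell markers was 5.08 to 12.1 CPM in all 14 libraries. MYCN transcript was 2712 ± 266 CPM with EGFP and 2240 ± 66.0 with OmoMYC (SD, n = 3). Its log2 fold change was -0.28 ± 0.07 (SE, FDR = 0.0103 by edgeR). With the offsets for GC content and exon length, described with the kinase genes, it was -0.46. Counts on MYC rose from 0.610 ± 0.0684 to 522 ± 7.85 CPM; OmoMYC derives from MYC, and reads of the transgene and of the endogenous gene cannot be told apart in these counts. The study's methods call the replicates biological without saying how the cultures were separated, and p-values measure the spread between these libraries. In bulk RNA, fewer cells with a transcript and less transcript per cell cannot be told apart.

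Levels of different genes were compared as CPM per kilobase of exon. AKT1, the ubiquitous AKT isoform, had the highest level in all 4 groups, at 23.8 ± 2.90 CPM per kb with EGFP and 19.3 ± 0.728 with DMSO (SD, n = 3 and 4). RPS6KB1, which encodes S6K1, came second with EGFP at 15.9 ± 1.37 and with DMSO at 16.1 ± 0.721 CPM per kb. AKT2, RPS6KA3, RPS6KA1 and RPS6KB2 followed with EGFP between 9.33 and 6.93 CPM per kb, and the libraries of each overlapped those of the next. PDPK1 was below these 6 with EGFP, at 4.47 ± 0.104 CPM per kb, and in the middle of the 9 with DMSO at 5.34 ± 0.116, where its libraries overlapped those of RPS6KB2. With OmoMYC, RPS6KA1 stood second at 14.7 ± 0.760, overlapping RPS6KB1 at 13.5 ± 0.778. The SGK genes were far lower. SGK1 had 0.151 ± 0.0208 CPM per kb with EGFP and SGK3 had 0.00814 ± 0.00970. Dividing by the longest transcript in place of all exons kept 5, 3, 3 and 2 of the 9 genes in their places with EGFP, OmoMYC, DMSO and dTAG47, and put AKT2 first in the last 3 of these groups, so the order among the upper 7 depends on the length used, while SGK1 and SGK3 were eighth and ninth either way.

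**Figure D1:**
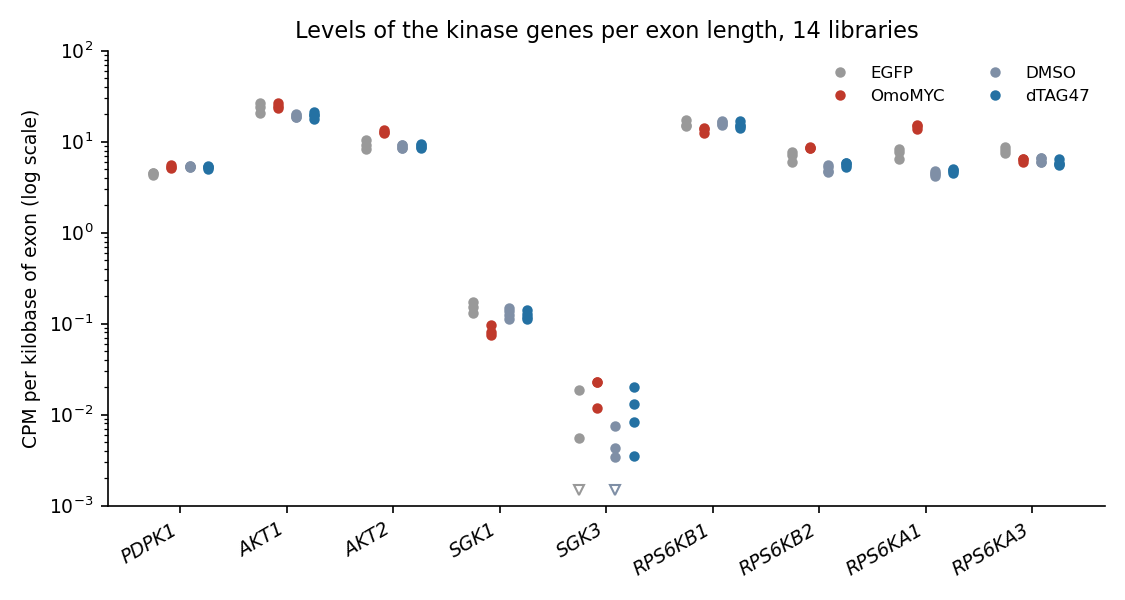
Levels of the 9 kinase genes as CPM per kilobase of exon on a log axis, each point 1 of 14 libraries, coloured by group. Open triangles near the lower edge mark libraries with 0 counts. AKT1 is highest, SGK1 lies near 0.1 CPM per kb, and SGK3 is below it in every library.

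SGK3 could not be followed. SGK3 is the isoform that binds endosomes through a PX domain. It had 1, 3 and 0 counts in the EGFP libraries, 2, 5 and 4 with OmoMYC, 2, 0, 1 and 1 with DMSO, and 2, 4, 1 and 6 with dTAG47. It did not pass the filter on low counts, and when tested without that filter its adjusted p was 0.316 with OmoMYC and 0.718 with dTAG47 by edgeR. Its exons share 2503 bases, 44% of their length, with the read-through gene C8orf44-SGK3, which had 0 to 9 counts per library. How reads that fall on both genes were counted is not given in the sources used here, so the low counts of SGK3 do not show that the gene is silent.

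With OmoMYC, 7 of the 8 tested genes changed at an FDR of 0.05 by edgeR's quasi-likelihood test, 4 upward and 3 downward. RPS6KA1, AKT2, RPS6KB2 and PDPK1 were induced, SGK1, RPS6KA3 and RPS6KB1 were suppressed, and AKT1 was not called. Much of the transcriptome differed between the OmoMYC and EGFP lines. Of the 13803 tested genes, 53.0% were called (27.3% induced and 25.7% suppressed), so a call by itself sets few genes apart. The OmoMYC and EGFP libraries did not overlap for 7 of the 8 genes, against 62.3% of all tested genes. The median log2 fold change was 0.16 over the 8 and 0.01 over all genes.

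The direction of the called changes moved with base composition. The 3 suppressed genes have the lowest GC content of the 8 in their longest transcripts (RPS6KB1 38.2%, RPS6KA3 39.5%, SGK1 41.1%), and the 4 induced genes range from 51.6% for PDPK1 to 58.0% for AKT2. AKT1, the most GC-rich of the 8 at 62.1%, was not called and had a log2 fold change of 0.06. Over all genes, those below 40% GC had a median log2 fold change of -0.29, and 51.6% of them were called suppressed. Those above 55% had a median of 0.30 and 47.0% were called induced. With offsets that remove a trend on this GC content and on exon length from each library, 4 of the 8 were called. RPS6KA1 rose, and SGK1, RPS6KA3 and AKT1 fell. In that fit 58.8% of the 13499 genes with a value were called. Whether the trend is technical or biological was not tested. The log2 fold change with offsets is given beside each kinase gene and each gene named from a list.

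PDPK1 (chr16:2587980-2653189, plus strand, GRCh37) had 49.8, 48.9 and 47.5 CPM in the EGFP libraries and 60.8, 58.0 and 56.8 CPM with OmoMYC. The groups did not overlap, and both were narrow. The log2 fold change was 0.26 ± 0.07 (SE, FDR = 0.00921 by edgeR), a rise of 20.1% (95% interval 7.87 to 33.8%). This call was lost when OmoMYC replicate 1 or 2 or EGFP replicate 2 was left out, with FDR up to 0.0602 and log2 fold changes of 0.24 in each case. With the GC and length offsets the log2 fold change was 0.07 (FDR = 0.275 by edgeR). PDPK1 has a near-identical pseudogene, PDPK2P, which neither count table lists. Antisense lncRNAs overlap 16.8% and 6.86% of the exon length of PDPK1, 6.05% of that of AKT1 and 8.08% of that of RPS6KB2. RPS6KB1 shares 1.94% of its exon length with a protein-coding gene on the same strand that was also counted. The handling of strand and of reads that map to several places is not given in the sources used here.

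AKT1 and AKT2 are the effectors of PDPK1 in insulin and growth factor signalling, AKT2 being the isoform most tied to glucose uptake. AKT2 (chr19:40736224-40791443, minus strand) had 132, 145 and 168 CPM with EGFP and 206, 200 and 216 CPM with OmoMYC. Every OmoMYC library was above every EGFP library, and the log2 fold change was 0.48 ± 0.09 (SE, FDR = 0.00118 by edgeR). AKT2 stayed called when any 1 library was left out (0.39 to 0.55). With the offsets its log2 fold change was 0.08 (FDR = 0.0744 by edgeR). AKT1 (chr14:105235686-105262088, minus strand) had 227, 266 and 290 CPM with EGFP and 271, 255 and 292 CPM with OmoMYC. These groups overlapped, and the log2 fold change of 0.06 ± 0.09 (SE, FDR = 0.600 by edgeR) had a 95% interval of -0.14 to 0.26. With the offsets AKT1, the most GC-rich of the 9 at 62.1%, was called in the other direction, at -0.38 (FDR = 2.8e-08 by edgeR).

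SGK1 is a kinase whose transcript is known to respond quickly to glucocorticoids, serum and osmotic stress. SGK1 (chr6:134490386-134639250, minus strand) had 54, 36 and 44 counts with EGFP, or 1.70, 1.29 and 1.52 CPM, and 28, 31 and 23 counts with OmoMYC, or 0.955, 0.804 and 0.756 CPM. The groups did not overlap although each value rests on few counts. The log2 fold change of -0.85 ± 0.22 (SE, FDR = 0.00734 by edgeR) has a 95% interval of -1.32 to -0.37. SGK1 stayed suppressed when any 1 library was left out (-0.97 to -0.76) and with the offsets (-0.65, FDR = 0.0194 by edgeR).

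RPS6KB1 and RPS6KB2 encode S6K1 and S6K2, which phosphorylate ribosomal protein S6 downstream of mTORC1. RPS6KB1 (chr17:57970407-58027935, plus strand), the gene with the repeated CATGCG, had 135, 117 and 116 CPM with EGFP and 108, 107 and 97.1 CPM with OmoMYC. RPS6KB2 (chr11:67195931-67202872, plus strand) had 35.0, 41.6 and 44.4 CPM with EGFP and 51.4, 49.1 and 49.1 CPM with OmoMYC. Neither gene's groups overlapped, and the paralogues moved in opposite directions. The log2 fold changes were -0.24 ± 0.08 for RPS6KB1 (SE, FDR = 0.0298 by edgeR) and 0.31 ± 0.09 for RPS6KB2 (SE, FDR = 0.0177 by edgeR). RPS6KB1 lost its call without OmoMYC replicate 1 or 3, where its log2 fold change was -0.27 and -0.22 (FDR up to 0.0819). RPS6KB2 lost its call without EGFP replicate 2 or any 1 of the OmoMYC libraries, at 0.28 to 0.31 (FDR up to 0.0733). These fits have fewer libraries and log2 fold changes close to those with all 6. Without EGFP replicate 1, RPS6KB2 was at 0.20 and still called (FDR = 0.0223). With the offsets neither was called, RPS6KB1 being at 0.06 (FDR = 0.223) and RPS6KB2 at 0.01 (FDR = 0.874).

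RPS6KA1 and RPS6KA3 encode RSK1 and RSK2, which are switched on by ERK together with PDPK1. RPS6KA1 (chr1:26856252-26901521, plus strand) had 38.0, 44.9 and 48.8 CPM with EGFP and 90.0, 81.4 and 87.6 CPM with OmoMYC. The lowest OmoMYC library was well above the highest EGFP library. The log2 fold change was 0.98 ± 0.10 (SE, FDR = 2.36e-05 by edgeR), a 1.97-fold rise. It held when any 1 library was left out (0.86 to 1.03) and with the offsets (0.70, FDR = 4.31e-10 by edgeR). RPS6KA3 (chrX:20168029-20285637, minus strand) had 86.0, 80.4 and 73.5 CPM with EGFP and 63.6, 63.8 and 58.6 CPM with OmoMYC. Here all OmoMYC libraries were the lower ones. Its log2 fold change was -0.37 ± 0.08 (SE, FDR = 0.00332 by edgeR). RPS6KA3 stayed suppressed when any 1 library was left out (-0.46 to -0.33), and with the offsets the fall shrank to -0.13 (FDR = 0.0157 by edgeR).

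**Figure D2:**
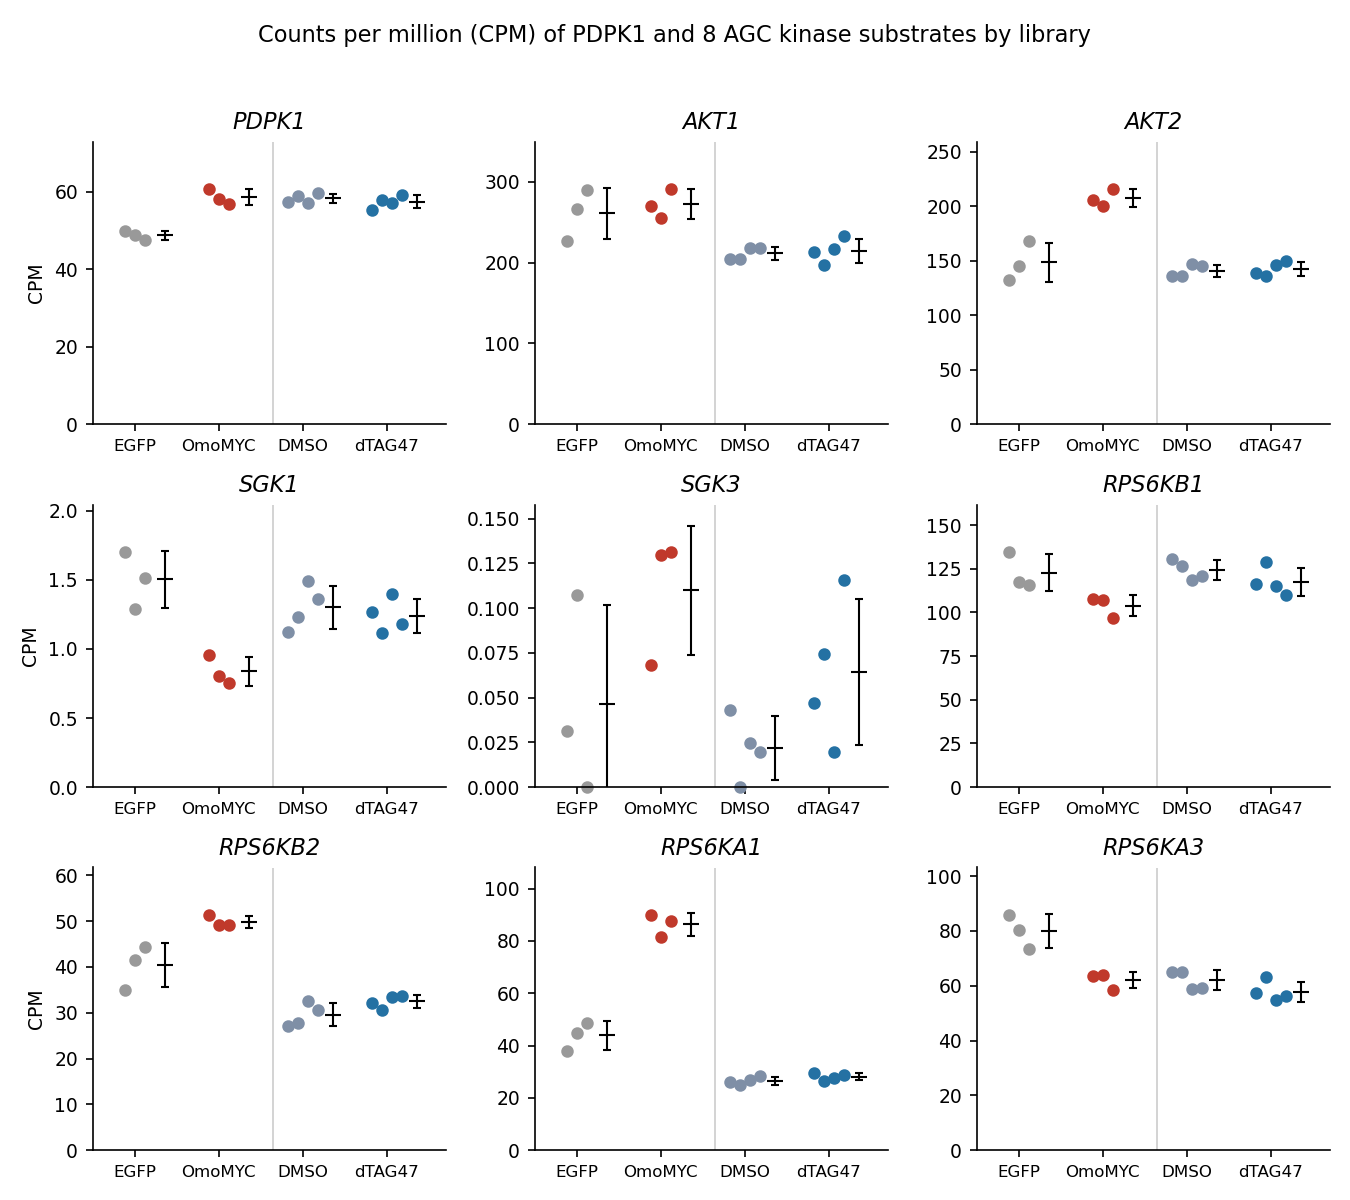
CPM of each kinase gene in each library (points), with the group mean and SD in black, and separate scales starting at 0. RPS6KA1 sits at 81.4 to 90.0 CPM with OmoMYC against 38.0 to 48.8 CPM with EGFP, while DMSO and dTAG47 libraries overlap for every gene.

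**Figure D3:**
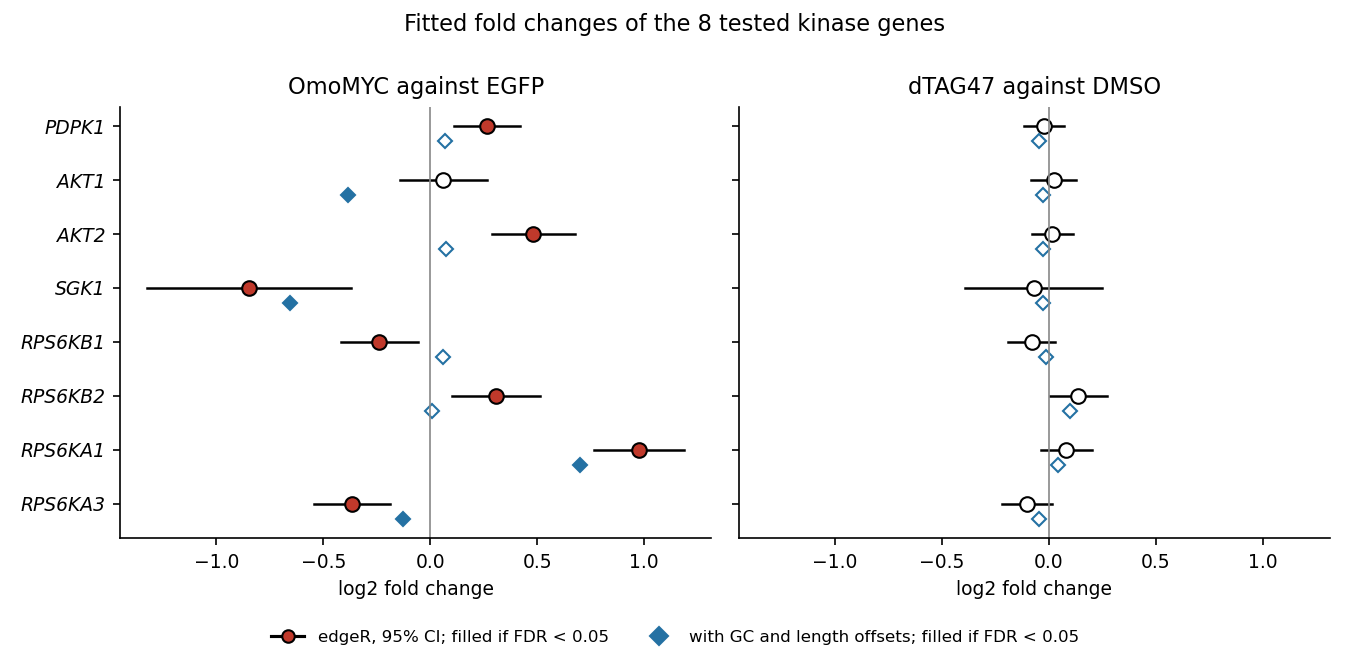
Log2 fold changes of the 8 tested genes with 95% intervals (circles, filled where FDR < 0.05), and the same with GC and length offsets (diamonds, filled where FDR < 0.05). With OmoMYC, RPS6KA1 at 0.98 and SGK1 at -0.85 lie farthest from 0 and stay filled with offsets; with dTAG47 no marker is filled.

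Ratios of counts between paralogues do not depend on how libraries are scaled. The RPS6KA1 to RPS6KA3 log2 ratio was -1.18, -0.84 and -0.59 in the EGFP libraries and 0.50, 0.35 and 0.58 in the OmoMYC libraries. RPS6KA3 thus had more counts than RPS6KA1 in every EGFP library, and RPS6KA1 had more in every OmoMYC library. The difference of the mean log2 ratios was 1.35. The AKT1 to AKT2 log2 ratio fell from 0.82 ± 0.05 to 0.39 ± 0.04 (SD, n = 3), and the RPS6KB1 to RPS6KB2 log2 ratio from 1.61 ± 0.30 to 1.06 ± 0.07 (SD, n = 3). For all 3 ratios the groups did not overlap, and the exact two-sided permutation test gave p = 0.1, the smallest that 3 against 3 libraries can give (0.2 after Benjamini-Hochberg adjustment over the 6 ratios tested). These ratios still carry the difference in GC content between the paralogues. The SGK1 to SGK3 ratio was not computed because SGK3 had libraries with 0 counts.

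**Figure D4:**
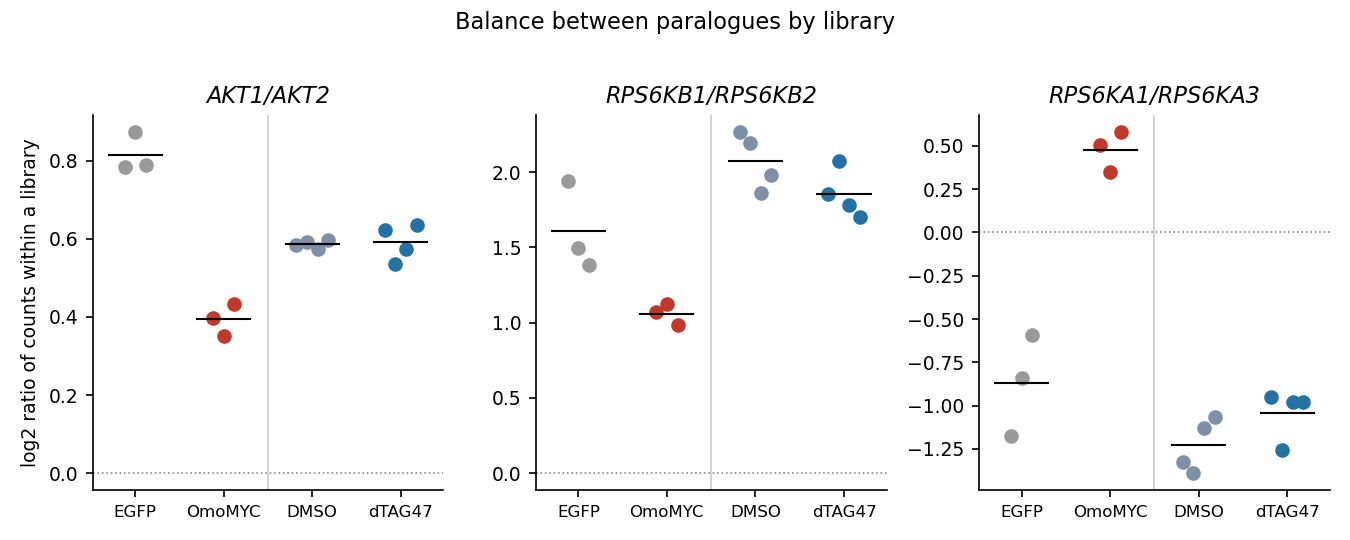
Log2 ratio of counts between paralogues within each library (points) and the group mean (lines); the dotted line marks equal counts. The RPS6KA1 to RPS6KA3 ratio is below 0 with EGFP, DMSO and dTAG47 and above 0 in the 3 OmoMYC libraries.

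With dTAG47 in parental cells, none of the 8 tested genes was called, against 0.159% of 14470 tested genes, and log2 fold changes ran from -0.10 to 0.14. Of the 8, 1 had an unadjusted p below 0.05 by edgeR, and DESeq2 called 0. The DMSO and dTAG47 groups overlapped for all 8 genes, while 3.34% of all tested genes had groups that did not overlap. PDPK1 had 57.3, 58.8, 57.1 and 59.8 CPM with DMSO and 55.3, 58.0, 57.0 and 59.2 CPM with dTAG47. These ranges lay almost on top of each other, and the log2 fold change was -0.02 ± 0.04 (SE, FDR = 0.885 by edgeR). Its 95% interval ran from a fall of 7.62% to a rise of 5.07%, so a change of PDPK1 transcript within that range cannot be told from none in this fit.

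RPS6KB2 came nearest to a call with dTAG47. It had 27.2, 27.7, 32.6 and 30.7 CPM with DMSO and 32.1, 30.7, 33.5 and 33.7 CPM with dTAG47. The groups overlapped, and the log2 fold change was 0.14 ± 0.06 (SE, FDR = 0.673, unadjusted p = 0.0406 by edgeR). A factor for replicates 1 and 2 against 3 and 4 raised the calls over all genes from 23 to 794, and with it RPS6KB2 was called (0.14, FDR = 0.0392 by edgeR). Within replicates 1 and 2 alone its log2 fold change was 0.20 (FDR = 0.617), and within 3 and 4 alone 0.09 (FDR = 0.375).

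The other 6 genes moved little with dTAG47. RPS6KA3 was at -0.10 ± 0.06, RPS6KB1 at -0.08 ± 0.05 and SGK1 at -0.07 ± 0.15, and RPS6KA1 was at 0.08 ± 0.06, AKT1 at 0.02 ± 0.05 and AKT2 at 0.02 ± 0.05 (log2 fold change ± SE). SGK1 had 52 to 70 counts with DMSO and 54 to 70 with dTAG47, so its 95% interval, -0.39 to 0.25, is the widest of the 8. The paralogue ratios overlapped between DMSO and dTAG47. The exact permutation p was 0.857 for AKT1 to AKT2, 0.143 for RPS6KB1 to RPS6KB2 and 0.171 for RPS6KA1 to RPS6KA3 (0.857, 0.206 and 0.206 after adjustment), where the smallest possible was 0.0286.

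The genes around these kinases were grouped by role into 8 lists, and a gene named from them was called unless its value says otherwise. With OmoMYC, 59 of their 90 tested genes (65.6%) were called, 32 induced and 27 suppressed, beside 53.0% of all tested genes. With the offsets 32 were induced and 28 suppressed, where 58.8% of all genes were called. With dTAG47, 0 of 93 were called by edgeR, DESeq2 or limma-voom, and 10 had an unadjusted p below 0.05 by edgeR, as did 1053 of all 14470 tested genes. With a block for replicate number 6 were called, and so were 4.62% of all genes. Among 11 other tested substrates of PDPK1 in the OmoMYC experiment, 4 rose and 4 fell, beside 27.3% induced and 25.7% suppressed over all tested genes. PRKCE and PRKCH, protein kinase C isoforms that respond to diacylglycerol, rose by log2 fold changes of 0.68 ± 0.12 and 0.67 ± 0.12, and PRKCI, an atypical isoform, and PKN2, a kinase related to protein kinase C, changed by -0.62 ± 0.09 and -0.58 ± 0.10 (SE; FDR 0.000262 to 0.00113 by edgeR). With the offsets all 4 were still called, at 0.64 for PRKCE and 0.52 for PRKCH, while the falls shrank to -0.30 for PRKCI and -0.24 for PKN2. RPS6KA2, which encodes RSK3 and was looked up after its value was seen, was induced (0.41 ± 0.10, SE, FDR = 0.00531 by edgeR) and was still called with the offsets (0.17, FDR = 0.0276).

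Upstream of PDPK1, 3 of 8 tested receptors and adaptors rose and 3 fell. Over all tested genes 27.3% were induced and 25.7% suppressed, and 31.0% and 27.8% with the offsets. The adaptors GAB2 and IRS2 rose by 0.86 ± 0.09 and 0.71 ± 0.11, and GRB10 and GRB14, adaptors that restrain the insulin receptor, changed by -0.78 ± 0.11 and -0.62 ± 0.14 (log2 fold change ± SE). All 4 were still called with the offsets, GAB2 at 0.62 and GRB10 at -0.96, with IRS2 down to 0.35 and GRB14 to -0.32. Of 15 tested PI3K subunits and lipid phosphatases, 7 rose and 2 fell, and 5 rose and 2 fell with the offsets. The largest rises were in PIK3CD, the p110 delta catalytic subunit (2.22 ± 0.240 to 6.81 ± 0.650 CPM, SD, n = 3; log2 fold change 1.61 ± 0.14), and PIK3IP1, an inhibitor of PI3K (2.17 ± 0.218 to 6.45 ± 0.512 CPM, SD, n = 3; 1.57 ± 0.14). These genes act in opposite directions on the pathway, and both stayed called with the offsets, at 1.26 and 1.48. PIK3R4, the regulatory subunit of the class III kinase VPS34, was at -0.38 ± 0.08 (-0.20 with the offsets, still called) and the class II kinase PIK3C2A at -0.24 ± 0.09. PIK3C2A lost its call when OmoMYC replicate 1 or 3 or EGFP replicate 2 was left out (FDR up to 0.111) and with the offsets (0.05, FDR = 0.242).

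Of 13 tested genes of the mTOR complexes and the TSC brake, 4 rose and 2 fell, and 4 rose and 6 fell with the offsets. The shares over all tested genes were 27.3% induced and 25.7% suppressed, and 31.0% and 27.8% with the offsets. RHEB, the GTPase that activates mTORC1, was at -0.37 ± 0.08 and DEPTOR, an inhibitor of mTOR, at 0.52 ± 0.13, and both were called with the offsets (-0.28 and 0.73). TSC2, which inactivates RHEB, was at 0.53 ± 0.10, and at 0.03 with the offsets (FDR = 0.463 by edgeR). Among 11 phosphatases, TRIB genes and ERK kinases, 3 rose and 5 fell. TRIB3, a pseudokinase that binds AKT, rose from 5.29 ± 0.618 to 11.5 ± 0.774 CPM (SD, n = 3; log2 fold change 1.12 ± 0.12, and 0.83 with the offsets, still called). Of the PP2A subunits, PPP2R1A was at 0.36 ± 0.07, PPP2CA at -0.33 ± 0.07 and PPP2R2A at -0.40 ± 0.09. These values shrank with the offsets, PPP2R1A to 0.11 and PPP2R2A to -0.12, which were still called, and PPP2CA to -0.06, which was not (FDR = 0.191).

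Downstream, 9 of 14 tested AKT and SGK substrates rose and 4 fell, and 8 and 4 did so with the offsets. For this and the next 2 lists, the shares over all tested genes were 27.3% induced and 25.7% suppressed, and 31.0% and 27.8% with the offsets. FOXO3, a transcription factor that AKT and SGK keep out of the nucleus, rose from 34.6 ± 1.01 to 76.3 ± 0.832 CPM (SD, n = 3), a log2 fold change of 1.14 ± 0.07 and 1.08 with the offsets. FOXO1 was at -0.55 ± 0.19 (FDR = 0.0283), and its call was lost without EGFP replicate 2 or OmoMYC replicate 3 (FDR up to 0.0786). With the offsets it was at -0.49 and called. NDRG2 rose by 1.07 ± 0.09 and TBC1D4, which links AKT to glucose transporter traffic, was at -0.39 ± 0.07, and both were called with the offsets (0.77 and -0.35). Of 11 tested S6K and RSK substrates, 0 rose and 6 fell by edgeR (1 rise had an unadjusted p below 0.05), with 2 rising and 4 falling once the offsets were applied. EEF2K, the kinase that inhibits translation elongation, was at -0.57 ± 0.08 and SRSF2, a splicing factor, at -0.56 ± 0.11, and both were still called with the offsets (-0.68 and -0.37). Of 12 tested FOXO target genes, 4 rose and 2 fell, and 6 and 2 with the offsets. IRS2 and PIK3IP1 are in this list too, and CITED2 and KLF6 were at -0.30 ± 0.07 and -0.29 ± 0.07 (-0.18 and -0.20 with the offsets, both called).

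**Figure D5:**
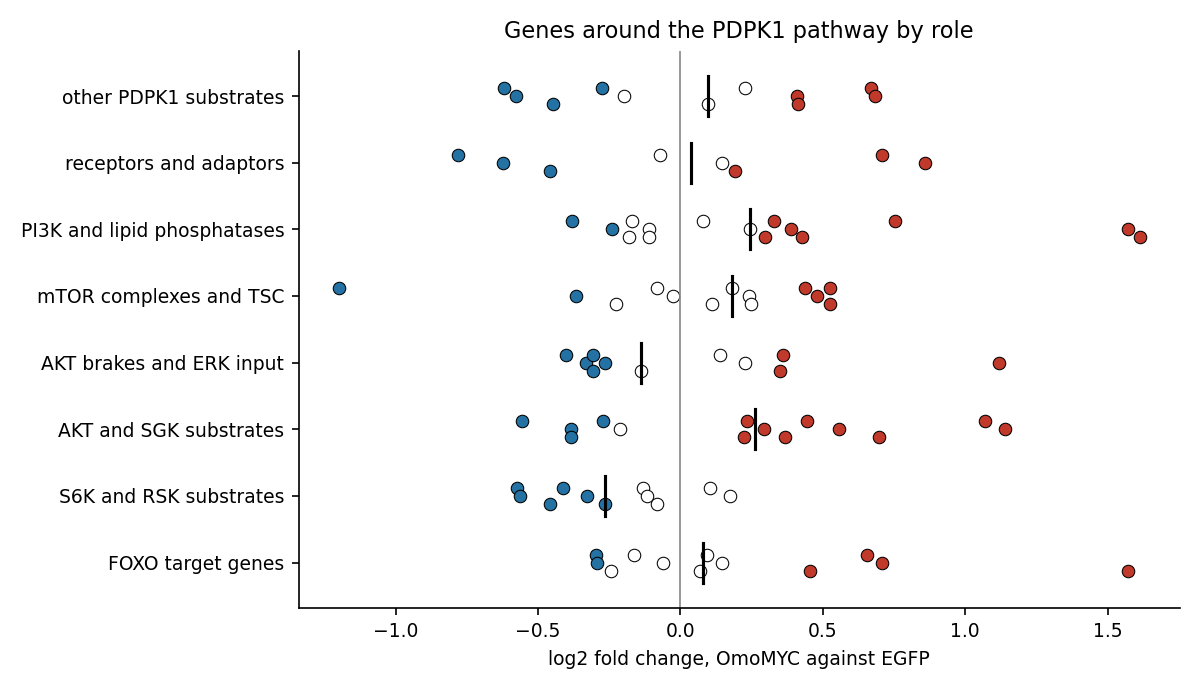
Log2 fold change of each tested gene in the 8 lists, OmoMYC against EGFP, with red and blue points for genes called induced and suppressed, open points for those not called, and a black line at the list's median. Medians run from -0.27 for the S6K and RSK substrates to 0.26 for the AKT and SGK substrates, and 7 of the 8 lists hold genes called in both directions.

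Likeness to PDPK1 was measured by Pearson's r of log2 CPM over the 14 libraries, centred within each experiment. Of 13423 genes compared, CPS1, the first enzyme of the urea cycle, had the highest r (0.974), followed by C12orf66 (0.970) and NPAS3 (0.958). The sizes of change were unlike: CPS1 had a log2 fold change of 5.56 with OmoMYC and 0.49 with dTAG47, C12orf66 of 0.61 and -0.07, and NPAS3 of 1.66 and 0.11, beside 0.26 and -0.02 for PDPK1. The libraries share their treatment, so such an r includes the step between EGFP and OmoMYC. How much of r comes from that step was not tested.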

How the data were processed

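RNA was ribosome-depleted and sequenced in 14 libraries. The authors used Cutadapt for trimming, STAR for alignment to hg19 and featureCounts for quantification, and the deposited values are these raw counts, whole numbers without normalization. The annotation and strand setting are not given in the sources used here. Each experiment was fitted separately in R 4.3.3 with edgeR 4.0.16 (filterByExpr, TMM, robust quasi-likelihood test), with Benjamini-Hochberg adjustment over all tested genes and an FDR threshold of 0.05. DESeq2 1.42.0, which the study used, and limma 3.58.1 were alternatives. CPM used TMM-scaled library sizes, and log2 CPM a prior count of 2.

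Alternatives were scaling by RLE, by upper quartile or by library size only, dropping the filter or asking every library for 10 counts or more, a replicate block, leaving out each library, a factor for parental replicates 1 and 2 against 3 and 4, and offsets for GC content and length (splines with 4 degrees of freedom). Fits within parental replicates 1 and 2 and within 3 and 4, and the counts over all pathway genes under each alternative, were added after seeing the data.

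Exon lengths, GC content and coordinates come from GENCODE v44 lifted to GRCh37, and 97.8% and 98.1% of tested genes had a value. The 9 genes and the lists were chosen with earlier results of these data known. Named list genes were at most 2 called genes with the largest rise and 2 with the largest fall per list, where the groups did not overlap and the mean was 1 CPM or more. From the lists 4 symbols found under more than 1 identifier were left out. Scripts were tested on simulated data.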

Additional observations from a re-analysis of the deposited data

Results flagged for a closer look

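The RPS6KA1 to RPS6KA3 log2 ratio of dTAG47 replicate 2 was -1.26, whereas the other three dTAG47 libraries lay between -0.98 and -0.95. Its gap to the nearest library exceeded Dixon's critical value for 4 libraries. Of 22 groups tested this was the only such library, and chance gives about 1 in 20. The same library had the highest RPS6KA3 (63.1 CPM) and the lowest RPS6KA1 (26.4 CPM) of its group, and the lowest AKT1 (196.6 CPM). Without it the difference in the ratio from DMSO was 0.26 in place of 0.19.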

How the results depend on the processing

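For OmoMYC against EGFP, the 4 induced and 3 suppressed kinase genes had those counts under DESeq2, limma-voom, the 3 other scalings, both other filters and the replicate block. GC and length offsets left 1 induced, with or without the block, and reversed AKT1 (-0.38 in both) and RPS6KB1 (0.0577, and 0.0585 with the block). Leaving out 1 library gave 2 to 4 induced and 2 to 3 suppressed, and AKT1 ran from -0.0459 to 0.11, reversed without EGFP replicate 1 or OmoMYC replicate 3. The cause was not tested. Left-out differences of the log2 ratios ran from -0.44 to -0.39 for AKT1 to AKT2, -0.66 to -0.38 for RPS6KB1 to RPS6KB2 and 1.19 to 1.49 for RPS6KA1 to RPS6KA3.

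For dTAG47 against DMSO, 17 genes were induced and 6 suppressed over all genes by edgeR. These became 44 and 15 with DESeq2, 306 and 362 with the replicate block, 76 and 42 with GC and length offsets, 152 and 79 with the block and the offsets, and 374 and 420 with the factor for replicates 1 and 2 against 3 and 4. They became 4 and 3 in replicates 1 and 2 only and 426 and 470 in replicates 3 and 4 only, while library size only gave 11 induced. Leaving out 1 library gave 4 to 52 induced and 2 to 32 suppressed, highest without dTAG47 replicate 2. Of the kinase genes 1 was called induced with the factor. Of the pathway genes, 3 were induced and 3 suppressed with the replicate block, 2 and 3 with the factor, and 2 and 2 in replicates 3 and 4 only. Signs turned for AKT1 and AKT2 with the offsets (-0.0274 and -0.0264; -0.0274 and -0.0263 with the block) and for SGK1 in replicates 1 and 2 only (0.0207). Leaving out 1 library turned AKT1 (-0.0159 to 0.0638), AKT2 (-0.0075 to 0.0395) and the AKT1 to AKT2 ratio (-0.0091 to 0.024). Same-numbered libraries had correlated deviations of r = 0.08, -0.07 and 0.29 in the OmoMYC experiment and 0.0093, 0.11, 0.10 and 0.16 in the parental one. Not every pair was over 0.1, so the numbers were not taken as pairs, although the block and the factor raised the parental calls over all genes. This rule looked only at equal numbers. It does not test a split of replicates 1 and 2 from 3 and 4, which the factor models. The block changed no call of a kinase gene.

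Ordering by the longest transcript kept 5, 3, 3 and 2 of 9 genes in place with EGFP, OmoMYC, DMSO and dTAG47. Depth limits SGK1 and SGK3, which had at most 70 and 6 counts in a library.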
